A study of Homo sapiens with 18 samples.

Results

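AP-1 subunits and immediate early regulators were followed as a group of 7 genes, JUN, JUND, ATF3, IER2, IER5, ID1 and ID2, chosen by symbol from a table of 8996 genes with fitted mRNA half-lives; all 7 are in it. The choice names genes with half-lives near 1 h, so short half-lives in the group describe how it was drawn up. RNA turnover was measured by SLAM-seq in HEK293T, a human embryonic kidney cell line of wild-type genotype per the labels. In this assay cells take up 4-thiouridine (s4U), and alkylation of the s4U turns newly made RNA into T-to-C conversions in 3′ end reads. All cells received either the solvent DMSO or STM2457, a small-molecule inhibitor of the m6A methyltransferase METTL3, for 3 h before labelling. After that, 100 µM s4U was added for 90 or 180 min, or left out, which gives 6 combinations of 3 samples and 18 samples in all.

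For each gene the table lists 1 fitted half-life and 1 fitted synthesis rate per treatment, without values for single samples, errors or read counts. Depth is therefore unknown, no test between DMSO and STM2457 can be made, and every ratio below compares 1 fitted value with another. A gene is called longer-lived where its STM2457 half-life was over 1.5-fold its DMSO half-life, and shorter-lived where the DMSO half-life was over 1.5-fold the other. The header names no time unit; hours are inferred, because the largest half-life, 69.3, equals ln 2 over a decay rate of 0.01. Half-lives of all genes had medians of 5.61 h under DMSO and 5.39 h under STM2457. Of 8 marker genes of other cell types, 2 are in the table, and it gives no expression levels to check the cell line by.

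AP-1 is a dimer of basic leucine zipper proteins, in which JUN or JUND pairs with a FOS, ATF or JUN family partner and binds DNA. Immediate early genes are transcribed within minutes of a growth or stress signal without new protein synthesis, and their mRNAs are short-lived, often through AU-rich elements in the 3′ UTR, so that the response can end quickly. JUN is the founding AP-1 subunit, JUND a more constantly expressed relative, and ATF3 a stress-induced bZIP factor that often represses. IER2 and IER5 are immediate early nuclear proteins, and ID1 and ID2 are helix-loop-helix proteins without a DNA-binding region that hold E proteins away from DNA. N6-methyladenosine (m6A), the mark made by METTL3, sits in the sequence DRACH (A, G or T, then A or G, then A, then C, then A, C or T) and is depleted near exon junctions.

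The coding regions of the 7 genes run from 405 nt (ID2) to 1044 nt (JUND), and 4 of them have no exon junction. On GRCh38 (GENCODE release 29), JUN lies on chromosome 1 (58780788 to 58784327, minus strand), JUND on chromosome 19 (18279760 to 18281622, minus strand) and ATF3 on chromosome 1 (212565334 to 212620777, plus strand). IER2 lies on chromosome 19 (13150415 to 13154908), IER5 on chromosome 1 (181088712 to 181092899), ID1 on chromosome 20 (31605283 to 31606515) and ID2 on chromosome 2 (8678845 to 8684453), each on the plus strand. JUN, JUND, IER2 and IER5 carry their coding sequence in 1 exon, as do 4.05% of 8521 genes with a usable transcript. ID1 and ID2 have 1 junction within the coding sequence and ATF3 has 2. No other annotated gene overlaps a member on its own strand. AC011446.2 overlaps IER2 and ID2-AS1 overlaps ID2 on the opposite strand, and no source used here says whether reads were counted by strand.

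JUN and JUND are relatives in sequence, and parts of their coding regions hold DRACH motifs in like surroundings. The following 21-base stretches of the coding strand, from GENCODE release 29 transcripts, show the 4 JUND stretches that share 14 or more of 21 bases with a JUN stretch, each above its partner, with the motif in capitals. They are printed because these genes took opposite directions under STM2457.
JUND coding position 452, chr19:18281023-18281043, minus strand: cacaagcaGAACCagctcggc
JUN coding position 374, chr1:58782687-58782707, minus strand: cacagccaGAACAcgctgccc
JUND coding position 587, chr19:18280888-18280908, minus strand: gtctacgcGAACCtgagcagc
JUN coding position 515, chr1:58782546-58782566, minus strand: gtctacgcAAACCtcagcaac
JUND coding position 904, chr19:18280571-18280591, minus strand: gaaagtgaAGACCctcaagag
JUN coding position 856, chr1:58782205-58782225, minus strand: aaaagtgaAAACCttgaaagc
JUND coding position 920, chr19:18280555-18280575, minus strand: aagagtcaGAACAcggagctg
JUN coding position 872, chr1:58782189-58782209, minus strand: aaagctcaGAACTcggagctg
Positions are those of the A of the motif, counted from 1 at the start codon. The first pair shares 14 bases, the second 18, the third 14 and the last 17.

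ID1 and ID2 likewise hold motifs in like surroundings, shown here because this pair also took opposite directions, ID1 within 1.5-fold and ID2 beyond it.
ID1 coding position 257, chr20:31605634-31605654, plus strand: ctgccccaGAACCgcaaggtg
ID2 coding position 167, chr2:8682322-8682342, plus strand: atcccccaGAACAagaaggtg
ID1 coding position 311, chr20:31605688-31605708, plus strand: tacatcagGGACCttcagttg
ID2 coding position 221, chr2:8682376-8682396, plus strand: tacatcttGGACCtgcagatc
Each of these pairs shares 16 of 21 bases. A motif is a match of letters and not a measurement of m6A.

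The first comparison asked how METTL3 inhibition moved the half-lives of the 7 genes. JUND, ID2 and ATF3 were longer-lived in STM2457, JUN was shorter-lived, and IER2, IER5 and ID1 had lower values within 1.5-fold. Of all 8996 genes, 28.5% were longer-lived while 24.9% were shorter-lived, and with only 7 genes, counts of 3 and 1 are not far from these shares. The median log2 ratio of the 7 genes was -0.26, beside -0.01 for all genes. In both treatments 6 of the 7 lay among the 10% of genes with the shortest half-lives (under 1.81 h for DMSO and 1.99 h for STM2457), and JUND lay outside it in both.

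**Figure D1:**
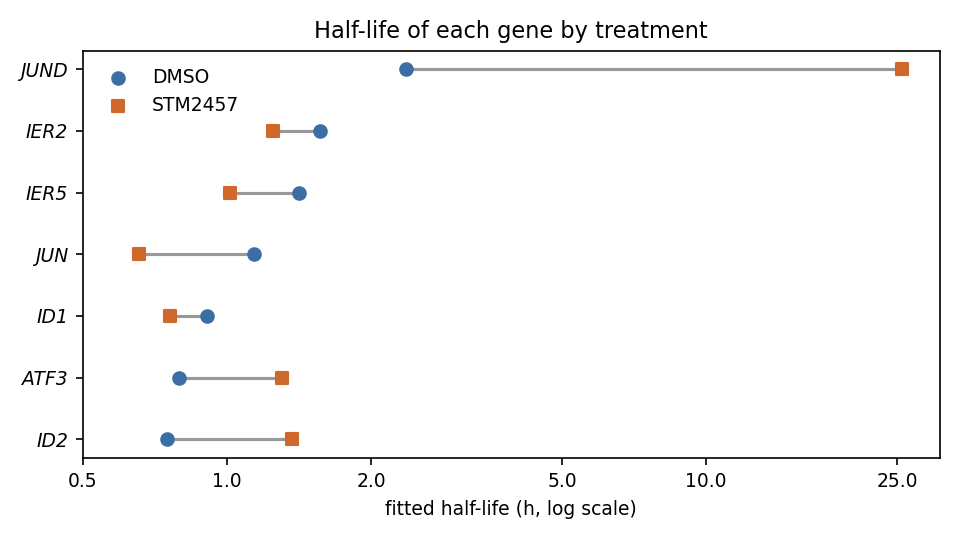
Fitted half-life (h, log axis) of each of the 7 genes in DMSO (circles) and STM2457 (squares), 1 value per treatment with no error available, ordered by the DMSO value. JUND runs from 2.37 to 25.6 h, while the other genes stay between 0.656 and 1.57 h in both treatments.

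Among the AP-1 subunits, the half-life of JUND was 2.37 h under DMSO and 25.6 h under STM2457, which is 10.8-fold longer (log2 ratio 3.43). This ratio stood above 96.6% of all genes. Of the 8996 genes, 980 sat at the largest half-life of 69.3 h in STM2457 and 229 in DMSO. Ratios of those genes are bounded by that value. No member sat there, but long half-lives in STM2457 were often not resolved by the fit. JUN had 1.14 h (68.2 min) under DMSO and 0.656 h (39.3 min) under STM2457, 1.73-fold shorter (log2 ratio -0.79), below all but 17.2% of genes. JUND mRNA was thus 2.09-fold longer-lived than JUN mRNA in DMSO and 39.0-fold in STM2457. ATF3 had 0.795 h (47.7 min) under DMSO and 1.31 h under STM2457, 1.64-fold longer (log2 ratio 0.72). In STM2457 only 32 genes in the table had a shorter half-life than JUN, against 236 in DMSO.

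Both immediate early response genes had lower values in STM2457, within 1.5-fold. IER5 had 1.42 h (85.0 min) under DMSO and 1.02 h (61.0 min) under STM2457 (log2 ratio -0.48). IER2 had 94.0 min under DMSO and 74.7 min under STM2457 (log2 ratio -0.33). IER2 stayed 1.11-fold above IER5 in DMSO and 1.23-fold above it in STM2457, and with 1 value per treatment these neighbours in the order cannot be told apart.

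The ID genes exchanged places. ID2 was the shortest-lived of the 7 in DMSO, at 0.748 h (44.9 min), and reached 1.37 h under STM2457, 1.83-fold longer (log2 ratio 0.87). ID1 had 0.909 h (54.5 min) under DMSO and 0.759 h (45.6 min) under STM2457 (log2 ratio -0.26). ID1 was thus 1.21-fold longer-lived than ID2 in DMSO, and ID2 1.80-fold longer-lived than ID1 in STM2457. From shortest to longest the order in DMSO was ID2, ATF3, ID1, JUN, IER5, IER2 and JUND, and in STM2457 it was JUN, ID1, IER5, IER2, ATF3, ID2 and JUND. No spread between samples is available to say which neighbours differ.

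Such half-lives set how much of each mRNA the label could reach. If RNA turned over at the fitted rates, 75.1% of ID2 mRNA in DMSO would be newly made after 90 min and 93.8% after 180 min. For JUN in STM2457 these shares would be 79.5% and 95.8%. JUND in STM2457 is at the other end, with 3.99% after 90 min and 7.81% after 180 min, beside 35.5% and 58.4% in DMSO. Both labelling times are short against the JUND half-life fitted in STM2457.

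The second comparison set each gene beside genes of like DMSO half-life, from 20% shorter to 25% longer than its own. Short-lived mRNAs in this table had mostly higher half-lives in STM2457. The DMSO half-life used to pick such genes is also the denominator of the ratio. How much of this shift comes from that choice was not tested. Medians of the log2 ratio among these genes ran from 0.30 (around JUND) to 0.57 (around ATF3). JUN stood low among 378 genes of like half-life, with 5 below it. Of those 378 genes, 43.4% were longer-lived and 4.76% shorter-lived, and their median was 0.43. IER5 had 39 of 614 genes below it, IER2 82 of 718 and ID1 24 of 181. ATF3 and ID2 stood near the middle, with 61 of 104 and 64 of 91 genes below them. JUND had 109 of 1226 genes above it. Relative to the median of such genes the log2 ratio was -1.22 for JUN, -0.92 for IER5, -0.80 for ID1 and -0.75 for IER2, each past 1.5-fold, and 3.14 for JUND. Treated in the same way, 20.7% of 8994 genes were below such a median by more than 1.5-fold and 27.3% above it. For ATF3 (0.15) and ID2 (0.30) it was within 1.5-fold.

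**Figure D2:**
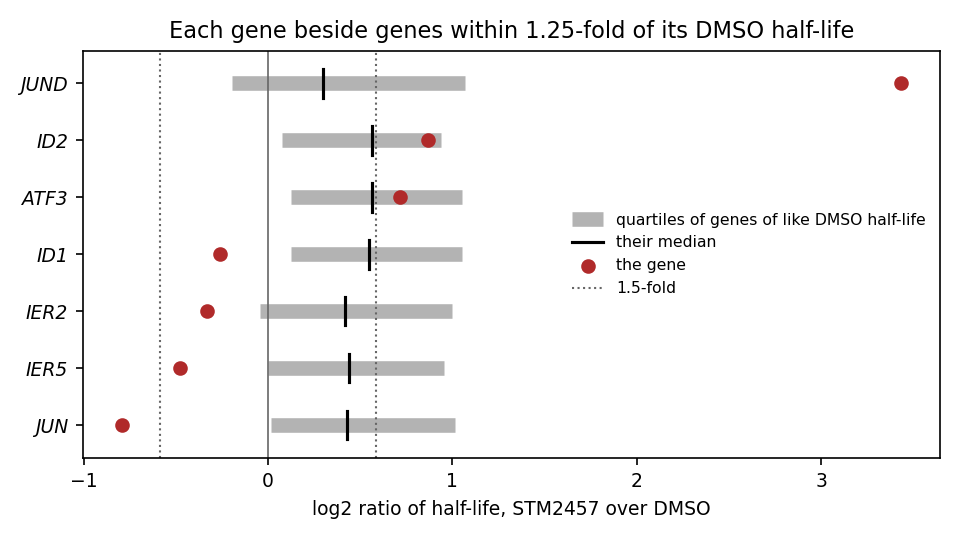
Log2 ratio of half-life (STM2457 over DMSO, horizontal axis) of each gene (point), beside the quartiles (bar) and median (line) of all other genes with a DMSO half-life from 20% shorter to 25% longer than its own. JUN, IER5, IER2 and ID1 lie left of the lower quartile, ATF3 and ID2 inside the quartiles and JUND right of the upper quartile.

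The fitted synthesis rates, whose unit the header does not name, were compared only within a gene. JUND had 194.5 in DMSO and 81.1 in STM2457, 2.40-fold lower, a log2 ratio of -1.26 that lies above only 1.37% of genes. ATF3 had 142.8 in DMSO and 84.4 in STM2457, 1.69-fold lower (log2 ratio -0.76). For JUN the rates were 1189 and 1294 (log2 ratio 0.12), and for IER5 they were 1120 and 1239 (0.15). IER2 had 332.6 and 302.6 (-0.14), ID1 had 189.2 and 207.7 (0.13), and ID2 had 2461 and 2922 (0.25). Synthesis was lower by more than 1.5-fold in 2 of 7 genes, against 13.2% of all genes, and higher by that much in none of 7, against 12.6%. Half-life and synthesis ratios had opposite signs in 5 of the 7, as in 62.0% of all genes; both values come from the same fit.

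Synthesis divided by decay gives the mRNA level that a fit implies at steady state. For ID2, where both values were higher, this level was 2.17-fold that in DMSO. ATF3 had longer life and lower synthesis, and its implied level was 0.971-fold. JUN was at 0.628-fold, IER2 at 0.723-fold, IER5 at 0.794-fold and ID1 at 0.918-fold. Implied levels were higher by more than 1.5-fold in 28.3% of all genes and lower by that much in 24.7%. For JUND the fit implied 4.50-fold. The longest label ended 6 h after treatment began. That STM2457 stayed on during labelling and that its fitted rates held from the start is assumed here. With these rates, 6 h in the compound would bring JUND to 1.53-fold, and 6 h of synthesis with no decay at all to 1.73-fold. For ID2 the level after 6 h would be 2.11-fold, close to its steady state.

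**Figure D3:**
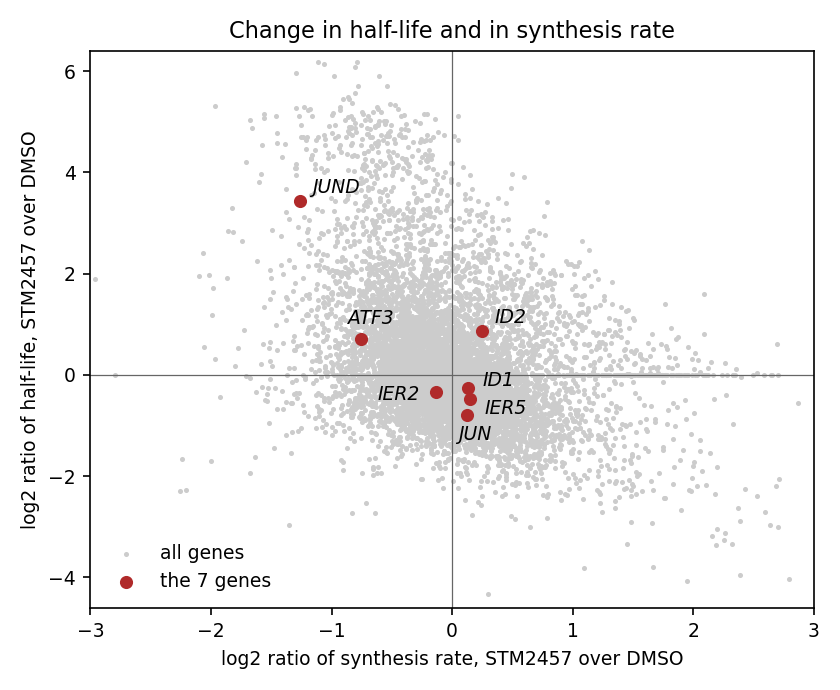
Log2 ratio of half-life (vertical) against log2 ratio of synthesis rate (horizontal), STM2457 over DMSO, for all genes (grey) and the 7 genes (red, named). JUND and ATF3 lie at longer half-life and lower synthesis, ID2 is higher on both axes, and JUN, IER5, ID1 and IER2 lie close together below 0 on the vertical axis; 7 genes beyond 3 on the horizontal axis and 3 with no synthesis ratio are not drawn.

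The title of the series names m6A sites in the coding region, so the third comparison turned to sequence. DRACH motifs were counted on the coding strand where their A lies at least 100 nt from the nearest exon junction, a count that 76.1% of genes have at 1 or more, with a median of 3. JUN carried 22 such motifs in a coding region of 996 nt, a density per kb above that of 98.9% of genes. IER5 carried 11, IER2 8, JUND 7, ID2 6, ATF3 4 and ID1 3. By this count the gene with the most motifs was the shorter-lived one. JUN, JUND, IER2 and IER5 have 1 exon, so the distance rule removed none of their coding motifs. Most genes have coding junctions, near which motifs are left out, so the density rank of JUN partly reflects exon structure. Without the distance rule ID2 held 10, ATF3 8 and ID1 5, which puts ID2 and ATF3 above JUND. The order also rests on the whole DRACH family. Counting GGACT alone gave 0 for JUN, JUND and ID1 and 1 for each of the other 4 genes. Other genes with 22 or more motifs, by count and not by density per kb, numbered 1011. Of these, 49.2% were longer-lived and 7.62% shorter-lived, with a median log2 ratio of 0.55. Among the 137 of them with a DMSO half-life from 20% shorter to 25% longer than that of JUN, a band chosen after the values were seen, none was shorter-lived and 63.5% were longer-lived.

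**Figure D4:**
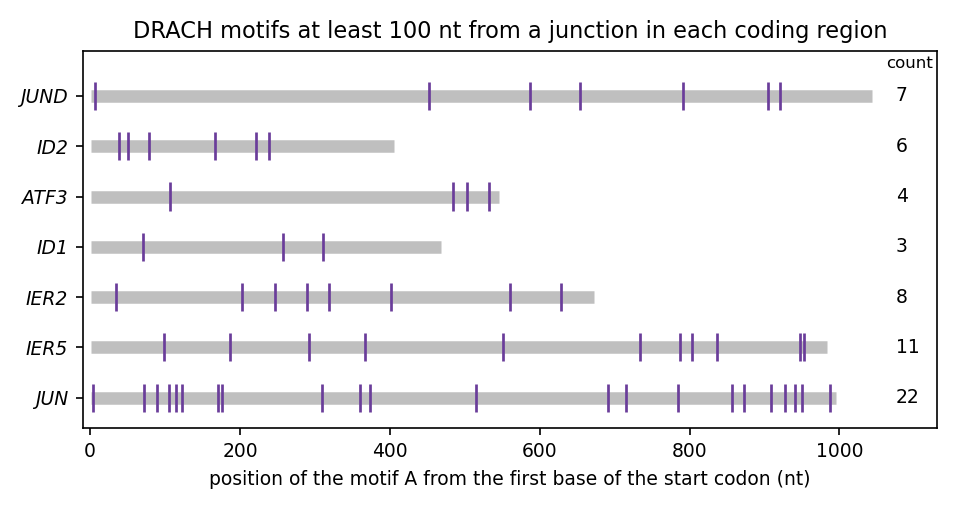
Position of each DRACH motif at least 100 nt from an exon junction along the coding region (grey bar, nt from the first base of the start codon), with genes ordered by their log2 ratio of half-life from JUN at the bottom to JUND at the top. JUN has 22 motifs over 996 nt and JUND 7 over 1044 nt.

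Coding regions without an internal junction were set apart. Among genes with a DMSO half-life in the range of the 7, 151 had no coding junction. Of these 68.2% were longer-lived and 2.65% shorter-lived, with a median log2 ratio of 1.18. With 1 or more coding junctions there were 1223 genes, 40.2% of them longer-lived and 3.84% shorter-lived, with a median of 0.38. JUND, IER2, IER5 and JUN are among the 151. JUND was above the upper quartile of 2.47, and the other 3 were below the lower quartile of 0.45. Only 4 of the 151 were shorter-lived, and besides JUN these were SPRY1, an inhibitor of receptor tyrosine kinase signalling (0.899 to 0.565 h), CDK5R1, the activator of CDK5 (1.28 to 0.562 h), and SFT2D3 (1.94 to 0.957 h).

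AU-rich elements were counted as ATTTA on the coding strand of the 3′ UTR, a motif that 68.6% of genes hold, with a median of 2. IER5 held 10, JUN, ATF3 and ID2 held 3 each, JUND and ID1 1 each, and IER2 none. The IER5 count was reached by 12.8% of genes. Its densest stretch holds 4 overlapping copies in 30 bases, beginning 2562 nt after the stop codon, and is shown beside the single copy of JUND.
IER5, chr1:181092448-181092477, plus strand: ttcctttATTTATTTATTTATTTAattata
JUND, chr19:18279998-18280027, minus strand: tcgattctgccctATTTAtgtttctactcg
Capitals mark ATTTA. The longer 7-base form TATTTAT, which can overlap ATTTA and which 31.8% of genes hold, was found 4 times in IER5, 2 times in ID2 and 1 time each in JUN, JUND and ATF3.

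By the 4 fitted values together, each gene was matched to its nearest genes in the table. Distance was Euclidean over log2 half-life and log2 synthesis in both treatments, each divided by its SD over genes, among 7950 genes below the ceiling of 69.3 h in both treatments. JUND was nearest to RTL6, a gene derived from a retrotransposon (1.96 and 21.1 h, distance 0.31), and PAG1, a membrane adaptor of Src-family kinases (2.33 and 18.8 h, 0.36). JUN was nearest to EPC1, a chromatin factor of the NuA4 complex (1.01 and 0.639 h, 0.38), and to IER5 (0.46). IER5 was nearest to MIDN (1.55 and 0.999 h, 0.23). IER2 was nearest to DGKE, a diacylglycerol kinase (1.58 and 1.10 h, 0.12), and CCDC66 (1.68 and 1.34 h, 0.13). ID1 had SLC25A25, a mitochondrial carrier (0.898 and 0.748 h, 0.18), and the non-coding MIR924HG (0.904 and 0.705 h, 0.21). ID2 had ZBTB7A, a zinc-finger repressor (0.843 and 1.31 h, 0.28), and HMGXB4 (1.18 and 1.44 h, 0.58). ATF3 had MYNN (0.891 and 1.56 h, 0.24) and L3MBTL1 (0.844 and 1.17 h, 0.25).

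Genes of the same pathways were read from 8 lists and are given by counts and medians. Of 38 other AP-1 and related bZIP genes listed, 22 are in the table. No FOS family gene is among the 22, nor is JUNB, so their counts do not cover these subunits. Among the 22, 8 were longer-lived and 2 shorter-lived, beside shares of 28.5% and 24.9% over the whole table. Their median log2 ratio was 0.16. MAF, a large bZIP factor, went from 1.67 to 33.5 h, and ATF5, a stress-response factor, from 20.9 to 4.01 h. Of 15 genes of the JNK cascade, whose kinases phosphorylate JUN, 10 lay within 1.5-fold, 3 above it and 2 below it, around a median log2 ratio of -0.03, with MAP3K4 from 3.23 to 15.0 h and the scaffold SPAG9 from 7.16 to 3.16 h. SRF, ELK1, ELK4 and MRTFA, factors at the serum response element, had 1 longer-lived gene, MRTFA, from 2.37 h to the ceiling of 69.3 h, which sets the size of its ratio, and none shorter-lived. ELK4 had a log2 ratio of 0.23 and ELK1 -0.11.

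Of 45 symbols listed for other immediate early genes, with CYR61 and CTGF also under their other names CCN1 and CCN2, 14 are in the table. Among these 14, 5 were longer-lived and none was shorter-lived, against 28.5% and 24.9% of all genes. The 14 had a median log2 ratio of 0.51, and their half-lives had medians of 0.774 h under DMSO and 1.04 h under STM2457. Of the 104 genes of like DMSO half-life to ATF3 (0.795 h), 48.1% were longer-lived and 6.73% shorter-lived. CSRNP2, a nuclear factor, had 1.62 and 3.64 h, and NFKBIA, the inhibitor of NF-kappaB, 0.658 and 0.568 h. JUN, at -0.79, lay below all 14. Beside ID1 and ID2, ID4 went from 1.20 h to 1.28 h. The E proteins that ID proteins bind differed among themselves, TCF4 being longer-lived (2.43 to 3.65 h), TCF3 shorter-lived (11.9 to 6.29 h) and TCF12 within 1.5-fold at -0.49. The list of BMP receptors, SMADs and regulators on the route to ID transcription held 10 genes (median 0.05). Of these, SMAD1 was longer-lived (1.14 to 3.68 h), SMAD9 shorter-lived (6.05 to 3.78 h) and 8 within 1.5-fold.

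Proteins that bind AU-rich or related elements in 3′ UTRs numbered 10, of which 8 were within 1.5-fold (median -0.27). Of the 10, 1 was longer-lived and 1 shorter-lived, beside 28.5% and 24.9% of all genes. ZFP36L1, which triggers decay of AU-rich mRNA, went from 0.607 to 0.921 h, and HNRNPD, also called AUF1, from 15.9 to 8.09 h. The MYC and MAX network, another set of transcription factors, with a median DMSO half-life of 3.07 h, held 10 genes with 4 longer-lived, 2 shorter-lived and 4 within 1.5-fold, and a median of 0.49. MLX, a dimer partner of the network, had 2.97 and 10.2 h, and MXI1, a MYC antagonist, 3.17 and 1.66 h. MYC itself is in this list and among the immediate early genes, at 0.653 and 0.966 h. No difference between these lists and the 7 genes was tested.

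**Figure D5:**
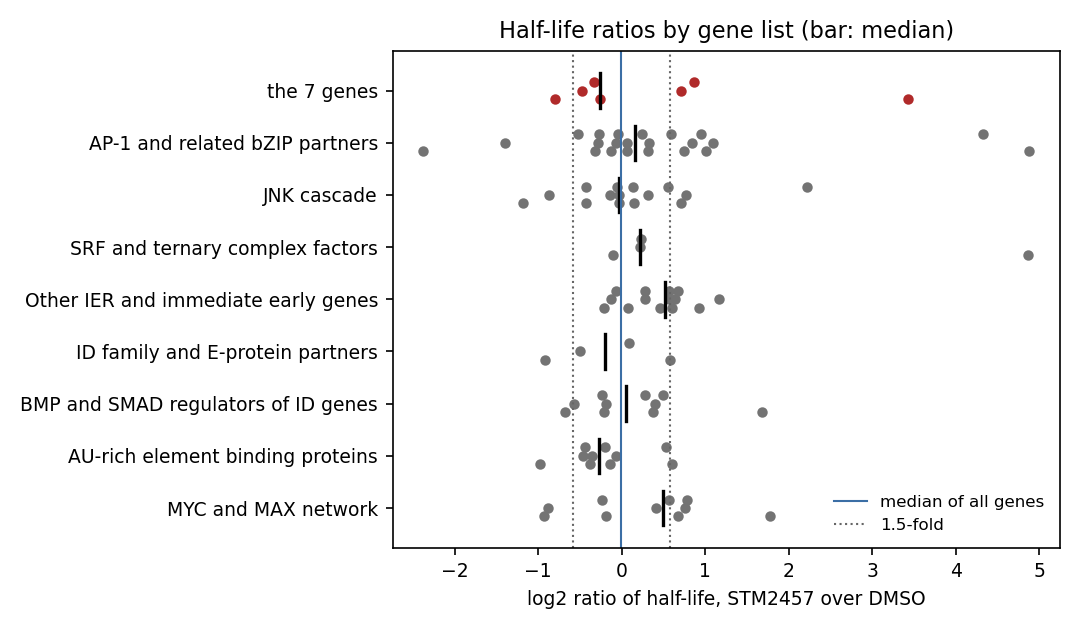
Log2 ratio of half-life (STM2457 over DMSO, horizontal axis) of the 7 genes (red) and of the genes of 8 lists (grey), with the median of each (black bar), the median of all genes (vertical line) and 1.5-fold (dotted). JUN at -0.79 lies left of every other immediate early gene and JUND at 3.43 right of them.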

How the data were processed

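Iodoacetamide was applied to 5 µg of RNA before 3′ mRNA libraries were amplified for 15 PCR cycles, per the labels' protocols. The labels give a lower input for a library they number 7, which could not be matched to a sample title. Per the submitters' processing notes, FastQC 0.11.9, STAR 2.7.8a and GRCh38.p12 were used. No source used here names the fitting tool, the gene filter or the libraries that entered each fit. Half-lives and synthesis rates are the authors' deposited fitted values, 1 per gene and treatment, and the authors' deposited log2 ratios were recomputed from them to within 1.27e-14.

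Computed here were ratios, counts past 1.5-fold, ranks, windows of like DMSO half-life, implied levels, nearest genes and motif counts in the transcript with the longest coding sequence (GENCODE 29; 8982 identifiers matched without version; 99.6% began with ATG). Ties went to the longer transcript. The size rule was run on simulated 2-fold changes without noise, and the motif counter on built sequences in which only GGACT was planted. Neither run bears on error in the fitted values. Named genes are the 7, the 2 nearest genes of each, and the highest and lowest ratio below the ceiling in each list, except 1 nearest gene that is not reported here; MYC, ID4, TCF12, MRTFA, SPRY1, CDK5R1 and SFT2D3 were chosen after their values were seen. The 7 genes and the lists were chosen with earlier results of these data known. Proteins were not used here. Python 3.11.15, NumPy 2.4.6, pandas 2.3.3 and Matplotlib 3.10.9 were used.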

Additional observations from a re-analysis of the deposited data

How the results depend on the processing

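No paired analysis was possible because the table has 1 fitted value per gene and treatment and no values for single samples; for the same reason no replicate could be left out. JUND and JUN kept their direction and stayed past 1.5-fold under all 3 alternatives for the log2 ratio of half-life, and no half-life ratio of the 7 genes changed sign. The all-gene median was -0.01, and holding half-lives to 0.5 to 24 h moved JUND alone, to 3.34, so neither could turn a direction. Genes of like DMSO half-life had a median of 0.43 around JUN, 0.42 around IER2, 0.44 around IER5 and 0.55 around ID1. Subtracting these could only lower these 4 genes further. Around JUND the median of 0.30 was too small beside 3.43 to turn its direction or bring it within 1.5-fold. Minus the median of genes of like DMSO half-life, ATF3 (0.15) and ID2 (0.30) fell within 1.5-fold and IER2 (-0.75), IER5 (-0.92) and ID1 (-0.80) passed it, so that 1 gene was longer-lived and 4 were shorter-lived (27.3% and 20.7% of all genes). With a 2-fold rule 1 of the 7 was longer-lived and 0 shorter-lived (19.7% and 11.3% of all genes). With a looser rule of 25% longer or 20% shorter, 3 were longer-lived and 3 shorter-lived (35.4% and 36.5%). Minus the median of all genes, the implied level of ATF3 went from -0.043 to 0.0084 on the log2 scale. With a 2-fold rule, longer-lived genes numbered 4 in the AP-1 and bZIP list, 1 in the JNK, immediate early and MYC lists and 0 in the ID and AU-rich lists. Shorter-lived genes then numbered 1 in the JNK list and 0 in the ID, BMP, AU-rich and MYC lists. With both half-lives between 0.5 and 24 h the serum response list had 0 longer-lived genes. Counting GGACT alone, far coding motifs numbered 0 in JUN, JUND and ID1 and 1 in ATF3, IER2, IER5 and ID2. At 200 nt from a junction they numbered 0 in ATF3, 1 in ID1 and 3 in ID2, and at 50 nt 5 in ID1. TATTTAT in place of ATTTA gave 1 in JUN and ATF3, 4 in IER5 and 0 in ID1. With half-lives alone, the nearest genes shared 1 of 2 names for ID1 and 0 for the other 6.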

Other observations

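By half-lives alone, without synthesis rates, ID1 kept SLC25A25 as its nearest gene, and other genes came nearest to the rest. Those of JUN are not listed here. ID2 was nearest to the antisense RNA MCM3AP-AS1 (0.767 h under DMSO and 1.36 h under STM2457) and to TOB1, an antiproliferative adaptor of deadenylation (0.716 and 1.36 h). ATF3 was nearest to MED26, a Mediator subunit (0.818 and 1.26 h), and to TOB2, the relative of TOB1 (0.832 and 1.33 h). IER2 was nearest to PMAIP1, the p53 target also called NOXA (1.55 and 1.22 h). JUND was nearest to POLR1B, a subunit of RNA polymerase I (2.45 and 24.8 h), and to ASB6 (2.45 and 26.7 h). IER5 was nearest to TSC22D1 (1.41 and 1.05 h) and to PCF11, of mRNA 3′ end formation (1.45 and 0.980 h).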
